A study of Homo sapiens with 6 samples.

Results

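The 10 genes described here encode HLTF and the enzymes and substrate around it in the ubiquitination of PCNA, and they were taken by symbol from a table of 56832 gene symbols. HLTF, also called SMARCA3, and its paralog SHPRH are the ubiquitin ligases that extend the chain. RAD18 is the ligase that starts it, UBE2A, UBE2B, UBE2N and UBE2V2 are conjugating (E2) proteins, PCNA is the substrate, and USP1 with WDR48 removes the modification. All 10 symbols were found and all 10 had enough counts to be tested. Messenger RNA was sequenced from HEK293T, a human embryonic kidney line that carries the SV40 large T antigen, in 3 wild-type libraries and 3 libraries labelled as SMARCA3 knockout. Both groups were grown in the same serum medium with no treatment named in the labels. The labels name neither the targeting method nor its site, and they do not state if the knockout was 1 clone or if replicates were separate cultures. P-values therefore measure only the spread between these libraries, which may be technical.

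PCNA is the ring-shaped clamp that holds DNA polymerases on the template. When a fork stalls, RAD18 with UBE2A or UBE2B attaches a single ubiquitin to a lysine of PCNA, which recruits translesion polymerases. UBE2N with UBE2V2, directed by HLTF or SHPRH, can lengthen it into a lysine-63-linked chain that favours template switching, and USP1 bound to WDR48 takes ubiquitin off again. The comparison asks whether the transcripts of this machinery differ between the cells labelled as knocked out for HLTF and wild-type cells.

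The codons for the residues at the centre of this chemistry are shown because they mark which part of each transcript encodes the modified lysine, the catalytic cysteine or, in the ligases, a zinc-binding cysteine of the RING domain. Each line is messenger sequence from GENCODE 29 (hg38), 5′ to 3′, with the codon in capitals and 12 bases on either side.
PCNA, the lysine that is modified: atttcctgtgcaAAAgacggagtgaaa
UBE2A, the cysteine that carries ubiquitin: gatggtagtataTGTctggacatactt
UBE2B, the cysteine that carries ubiquitin: gatggtagcataTGTttagatatcctt
UBE2N, the cysteine that carries ubiquitin: ttgggaagaataTGTttagatattttg
USP1, the cysteine that cleaves ubiquitin: ctcggcaatactTGCtatcttaatagt
RAD18, a cysteine of its RING domain: cggtgtggaattTGCttcgagtatttc
HLTF, a cysteine of its RING domain: tcagatgaggaaTGTgcaatttgcctg
SHPRH, a cysteine of its RING domain: aatccagaacctTGCccaatctgtgct
The PCNA codon lies in exon 4 of 6 at chr20:5117560-5117562 on the minus strand. The HLTF codon lies in exon 20 of 25 at chr3:149041586-149041588 and the SHPRH codon in exon 24 of 30 at chr6:145913508-145913510, both on the minus strand. UBE2A and UBE2B, the human RAD6 pair, have coding sequences of 456 bases each with 367 identical positions (80.5%), and the longest identical run is 25 bases, shorter than the 50-base reads.

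Total counts per library ran from 33125811 to 41593655, and all 3 knockout libraries had lower totals than all 3 wild-type libraries. These are reads counted on genes, not reads sequenced. Levels are in CPM, counts per 1000000 counts of tested genes after TMM scaling, and a gene was called when its Benjamini-Hochberg adjusted p in edgeR's quasi-likelihood test over 18061 genes was under 0.05. Of 8 markers fixed for HEK293-derived cells, all 8 had more than 3 counts in every library. Marker levels, unlike the others, are per 1000000 of all counts of a library, without TMM scaling. The summed level of these 8 was 373 to 391 CPM in wild-type and 283 to 289 CPM in knockout libraries. The part of this difference in the results was not tested. Of 11 markers of leukocytes, fibroblasts, endothelium and liver, 5 had at most 3 counts in every library, with CD3E and DCN at 0, while only COL1A1 of the 11 had more than 3 counts in all 6 libraries. The summed level of the 11 was 6.40 to 8.25 CPM in wild-type and 6.06 to 6.86 CPM in the knockout. In bulk RNA a change in the share of cells and a change in RNA per cell cannot be told apart.

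Of the 10 genes, 3 fell (HLTF, UBE2N and UBE2A), 2 rose (SHPRH and WDR48) and 5 were not called (RAD18, UBE2B, UBE2V2, PCNA and USP1). Across all tested genes 31.8% were called, 17.7% lower and 14.0% higher. The median log2 fold change was -0.06 over the 10 genes and 0.0031 over all tested genes. The CPM ranges of the groups did not overlap for 6 of the 10 genes, the 5 called ones and PCNA, against 45.6% of all tested genes. The same 5 genes were called with all libraries thinned to the smallest total, which was added after seeing the data. Standard errors of the log2 fold changes lay between 0.04 and 0.06. Before any correction for neighbouring genes, the largest log2 fold changes among the 10 were those of the 2 chain-extending ligases, in opposite directions, and RAD18 had the smallest. Relative to the median of its neighbours on the chromosome, SHPRH still had the largest (0.18), while HLTF (0.017) was not called and UBE2A (-0.0038) had the smallest.

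**Figure D1:**
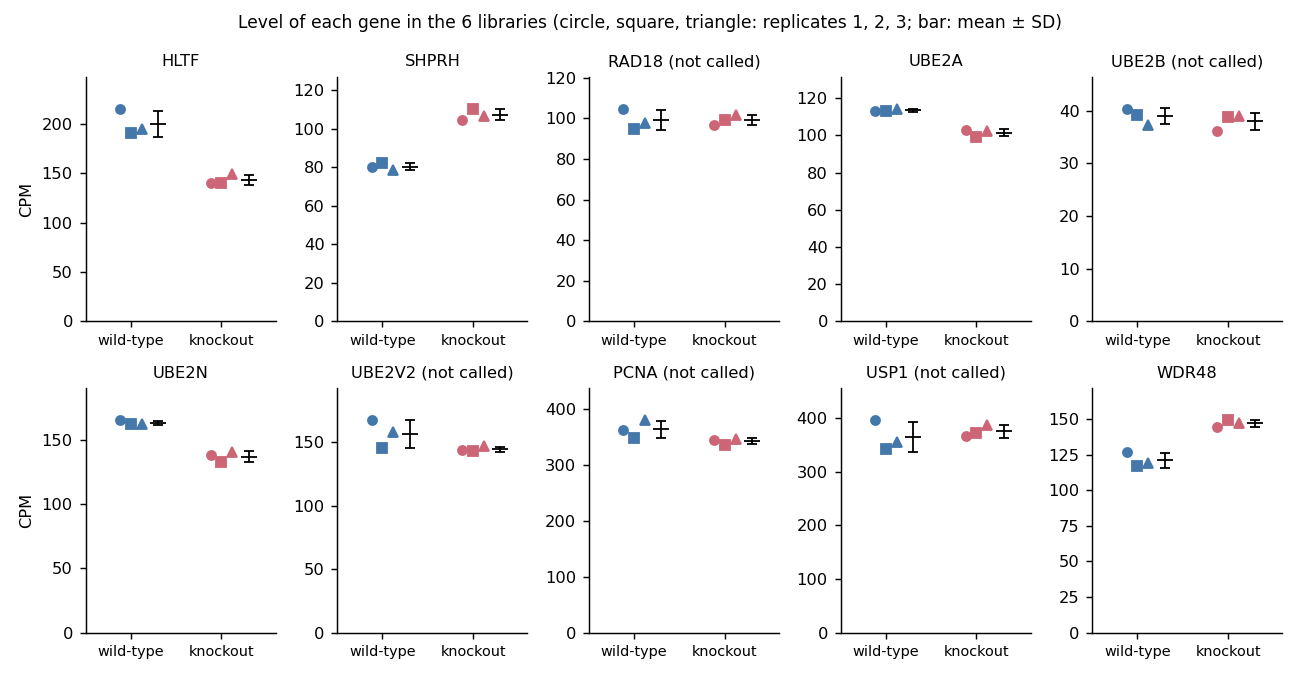
CPM of the 10 genes in each of the 6 libraries, on axes that start at 0, with wild-type in blue, knockout in red and the mean ± SD (n = 3) as a bar. Wild-type and knockout points are separate for HLTF, SHPRH, UBE2A, UBE2N, WDR48 and PCNA and overlap for RAD18, UBE2B, UBE2V2 and USP1.

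Among the ligases, HLTF, a SNF2-family translocase with a RING domain, had 8933, 7442 and 7427 counts in the wild-type libraries and 4834, 5150 and 4931 in the knockout libraries, given here and below in the order of replicates 1 to 3. Scaled for depth these were 215, 191 and 195 CPM against 141, 140 and 149 CPM, so every knockout library lay below every wild-type library, and transcript was still present in all 3. The knockout mean was 71.6% of the wild-type mean, a log2 fold change of -0.48 (95% interval -0.60 to -0.37, edgeR adjusted p = 4.65e-05). Relative to the median of its neighbours on the chromosome it was 0.017 and not called. The adjusted p was 0.831, by a t test with the edgeR standard error. A count over the whole gene cannot tell if the reading frame, the RING codon printed above or the protein was altered.

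SHPRH, which pairs a SNF2 helicase core with a RING domain as HLTF does, measured 80.3, 82.2 and 78.7 CPM in wild-type libraries and 105, 110 and 107 CPM in knockout libraries. All 3 knockout libraries lay above all 3 wild-type libraries. The log2 fold change was 0.42 (95% interval 0.32 to 0.51, edgeR adjusted p = 3.63e-05). Exons of the antisense gene AL356599.1 cover 10.1% of the SHPRH exon bases, and the labels do not state whether the counting used strand.

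RAD18, the RING ligase that attaches the first ubiquitin, measured 105, 94.9 and 97.8 CPM in wild-type libraries and 96.7, 99.2 and 102 CPM in knockout libraries. The knockout values lay inside the wild-type range. Its log2 fold change was 0.00069 with a 95% interval of -0.11 to 0.11, or 0.930-fold to 1.08-fold between these libraries (edgeR adjusted p = 0.994).

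Among the conjugating proteins, UBE2N, the E2 specific for lysine-63 chains, measured 165, 162 and 162 CPM in wild-type libraries and 138, 132 and 140 CPM in knockout libraries. The groups did not overlap, and the wild-type values differed by less than 3 CPM. The log2 fold change was -0.25 (95% interval -0.34 to -0.17, edgeR adjusted p = 0.000600). Exons of NUDT4, on the other strand, cover 39.5% of UBE2N exon bases, so UBE2N counts are uncertain if reads were counted without strand. NUDT4 itself had a log2 fold change of 0.15 (edgeR adjusted p = 0.0567), the opposite sign. The intronless copy UBE2NL had at most 4 counts in any library.

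UBE2V2, the E2 variant without a catalytic cysteine that binds UBE2N, measured 167, 145 and 158 CPM in wild-type libraries and 144, 143 and 146 CPM in knockout libraries. Wild-type replicate 2 fell within the knockout range and replicates 1 and 3 above it. The log2 fold change of -0.12 was not called (95% interval -0.23 to -0.0056, edgeR adjusted p = 0.104). Without wild-type replicate 2 it was -0.16 (edgeR adjusted p = 0.0410) and without wild-type replicate 1 it was -0.06 (edgeR adjusted p = 0.312), so its side of the threshold rests on which wild-type library is kept. UBE2V1, the other E2 variant that binds UBE2N, had only 155 to 184 counts per library and was not called. That count is uncertain, because a readthrough symbol, TMEM189-UBE2V1, shares its exons and was at 0 in all 6 libraries.

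UBE2A, the X-linked RAD6 gene, measured 113, 113 and 114 CPM in wild-type libraries and 103, 99.4 and 102 CPM in knockout libraries. Its groups did not overlap, and its wild-type coefficient of variation of 0.600% was the lowest of the 10 genes. The log2 fold change was -0.16 (95% interval -0.25 to -0.08, edgeR adjusted p = 0.00927), a call lost without knockout replicate 2 (edgeR adjusted p = 0.0581). The call was also lost with the median of its neighbours taken off (t test with the edgeR standard error, adjusted p = 0.952). Exons of NKRF on the other strand cover 18.1% of UBE2A exon bases, and NKRF had a log2 fold change of -0.10 (edgeR adjusted p = 0.147). UBE2B, the autosomal RAD6 gene, measured 40.3, 39.2 and 37.3 CPM in wild-type libraries and 36.1, 38.8 and 39.0 CPM in knockout libraries. Those ranges overlapped, and the log2 fold change of -0.04 was not called (95% interval -0.16 to 0.09, edgeR adjusted p = 0.669).

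The substrate PCNA measured 363, 349 and 380.0 CPM in wild-type libraries and 345, 336 and 347 CPM in knockout libraries. Every knockout library lay below every wild-type library by at least 2 CPM, yet the log2 fold change of -0.09 was not called (95% interval -0.18 to 0.0028, edgeR adjusted p = 0.131). PCNA transcripts share 0.211% of their 50-base stretches with another gene, the processed pseudogene PCNAP3.

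On the removal side, USP1, the deubiquitinase, measured 396, 343 and 355 CPM in wild-type libraries and 366, 371 and 388 CPM in knockout libraries. Wild-type replicate 1 was the highest of the 6 and the other wild-type libraries were the lowest. The log2 fold change of 0.04 was not called (95% interval -0.08 to 0.16, edgeR adjusted p = 0.595). Without wild-type replicate 1 it was 0.12 (edgeR adjusted p = 0.0316). That library was the highest wild-type value for 7 of the 10 genes and for 41.0% of all tested genes.

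WDR48, also called UAF1, the WD-repeat activator that USP1 needs, measured 127, 117 and 119 CPM in wild-type libraries and 144, 149 and 147 CPM in knockout libraries. The groups did not overlap. The log2 fold change was 0.28 (95% interval 0.18 to 0.37, edgeR adjusted p = 0.000634). Leaving out any library kept the call, with edgeR adjusted p-values of 1.13e-05 to 0.00534. But taking off the median of its neighbours ended the call (log2 fold change 0.05, t test with the edgeR standard error, adjusted p = 0.438). Of the 2 subunits of this deubiquitinase, WDR48 was called higher and USP1 was not called.

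Ratios between paired genes within a library do not depend on library scaling, and 4 pairs were compared by an exact two-sided permutation test, whose smallest possible p for 3 against 3 libraries is 0.1. HLTF CPM was 2.68, 2.32 and 2.48 times SHPRH CPM in wild-type libraries and 1.34, 1.27 and 1.40 times in knockout libraries. The mean ratio went from 2.49 ± 0.179 to 1.34 ± 0.0657 (SD, n = 3), a difference of -0.90 on the log2 scale (exact permutation p = 0.1, adjusted p = 0.133 over 4 pairs). USP1 over WDR48 was 3.12, 2.92 and 2.99 in wild-type and 2.54, 2.49 and 2.64 in the knockout, a log2 difference of -0.24 without overlap (exact permutation p = 0.1, adjusted p = 0.133). UBE2N over UBE2V2 was 0.988, 1.12 and 1.03 against 0.961, 0.928 and 0.957, a log2 difference of -0.14 (exact permutation p = 0.1, adjusted p = 0.133). The gap between the groups in that pair was small, 0.988 against 0.961. UBE2A over UBE2B was 2.80, 2.89 and 3.07 against 2.85, 2.56 and 2.62, which overlapped (log2 difference -0.13, exact permutation p = 0.2). Neighbours on the chromosome had a median log2 fold change of -0.50 for HLTF and 0.24 for SHPRH. The medians were -0.09 for USP1 and 0.23 for WDR48, -0.13 for UBE2N and 0.04 for UBE2V2, and -0.16 for UBE2A and -0.09 for UBE2B. The part of the neighbourhoods in these ratios was not tested.

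**Figure D2:**
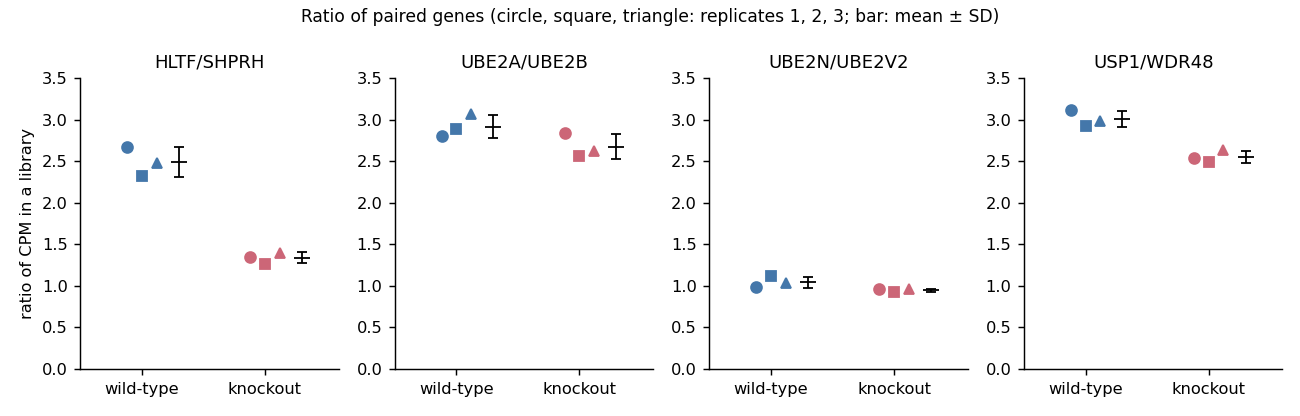
Ratio of CPM of paired genes in each library, with wild-type in blue, knockout in red and the mean ± SD (n = 3) as a bar, on axes that start at 0. HLTF over SHPRH goes from 2.49 to 1.34 and USP1 over WDR48 from 3.01 to 2.56 without overlap, while UBE2A over UBE2B overlaps.

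Levels of different genes were compared per kilobase of annotated exon. In wild-type cells PCNA was highest at 247 ± 10.5 CPM per kilobase (SD, n = 3), at percentile 99.2 of tested genes with a position, and USP1 followed at 85.5 ± 6.54. HLTF stood at 33.3 ± 2.17, UBE2N at 26.0 ± 0.256, UBE2V2 at 23.7 ± 1.66 and UBE2A at 21.5 ± 0.129 CPM per kilobase. WDR48 at 16.2 ± 0.707, RAD18 at 14.2 ± 0.719 and UBE2B at 11.8 ± 0.469 came next, and SHPRH was lowest at 4.56 ± 0.101 CPM per kilobase, percentile 49.7. The ranges of neighbours in this order did not overlap in wild-type libraries.

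In the knockout libraries HLTF, at 23.8 ± 0.872 CPM per kilobase (SD, n = 3), was still in the same place of the order, and SHPRH, at 6.08 ± 0.161, was still last. WDR48 at 19.6 ± 0.321 moved ahead of UBE2A at 19.2 ± 0.348, with overlapping ranges, and UBE2N overlapped UBE2V2 (both 21.8). The order in the middle depends on the length used. With the longest annotated transcript, UBE2A came to 42.9 in wild-type, ahead of HLTF at 37.7 CPM per kilobase, while PCNA and USP1 stayed on top and RAD18, UBE2B and SHPRH at the bottom.

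**Figure D3:**
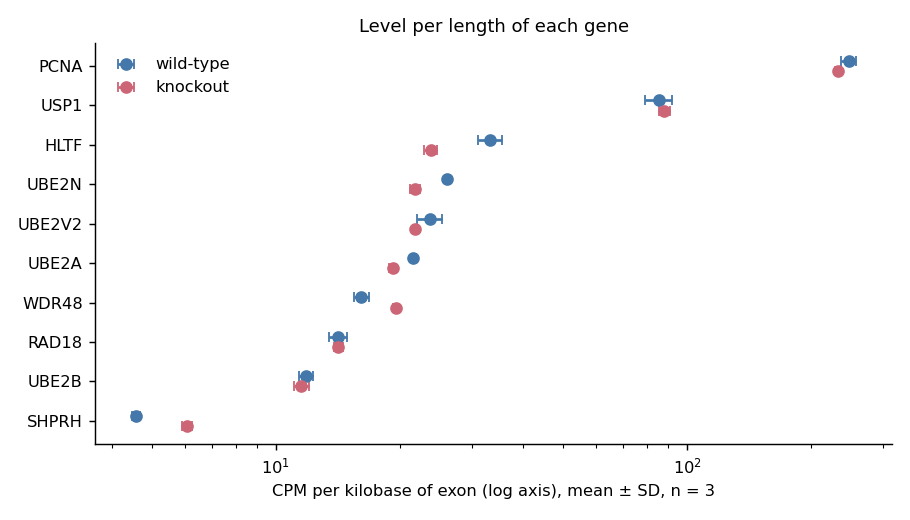
Mean ± SD (n = 3) of CPM per kilobase of exon on a log axis for the 10 genes, wild-type in blue and knockout in red. PCNA and USP1 lie above the rest, and SHPRH, at 4.56 in wild-type and 6.08 in the knockout, lies below all others.

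Each gene was then set beside its 40 nearest expressed genes (20 on each side, mean of at least 2 CPM). These neighbours covered long stretches, from chr5:131641714-138178986 for UBE2B, the shortest, to chrX:108155607-129592561 for UBE2A, the longest. The stretch was chr3:140941830-155944026 for HLTF and chr8:41577187-58659844 for UBE2V2. HLTF, at chr3:149030127-149086554, had neighbours with a median log2 fold change of -0.50, with 27 neighbours called lower and 4 higher. UBE2A, at chrX:119574467-119591083, had the same log2 fold change as the median of its neighbours, -0.16, with 22 neighbours called lower and 4 higher. WDR48, at chr3:39051998-39096671, had 0.28 beside 0.23, with 25 neighbours called higher and 2 lower. With the neighbour median taken off, these 3 genes were no longer called. Their log2 fold changes were then 0.017 for HLTF, -0.0038 for UBE2A and 0.05 for WDR48, with adjusted p-values of 0.831, 0.952 and 0.438. These p-values and those in the next paragraph are from a t test with the edgeR standard error, adjusted over tested genes with a position. That test treats the neighbour median as free of error.

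SHPRH, at chr6:145864245-145964423, exceeded its neighbour median of 0.24 and stayed called after its removal (log2 fold change 0.18, adjusted p = 0.0103), with 85.0% of its neighbours below it. Of those neighbours 27 were called higher and 4 lower. UBE2N, at chr12:93405673-93442262, had a neighbour median of -0.13, with 18 neighbours called lower and 2 higher, and remained lower after removal (-0.12, adjusted p = 0.0352). UBE2V2, at chr8:48008400-48064708, had a neighbour median of 0.04 and was called lower with that taken off (-0.16, adjusted p = 0.0385). RAD18 near the end of chromosome 3 had only 30 such neighbours, with a median of 0.09. The neighbour medians of PCNA (chr20:5114953-5126626), UBE2B (chr5:134371179-134391992) and USP1 (chr1:62436297-62451804) were -0.04, -0.09 and -0.09, and these genes were not called either way. Whether position plays a part in any of these changes was not tested beyond these values.

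**Figure D4:**
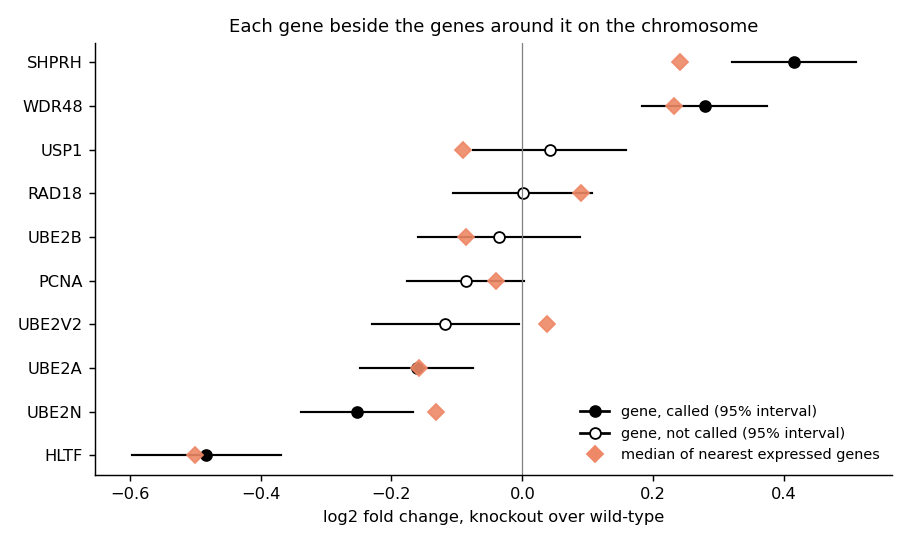
Log2 fold change of each gene with its 95% interval (filled circles called, open circles not called) and the median of its nearest expressed genes (orange diamonds). The diamond lies inside the interval for HLTF, UBE2A, WDR48, RAD18, UBE2B and PCNA and outside it for SHPRH, UBE2N, UBE2V2 and USP1.

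Around these 10 genes, 132 further genes of the pathway were tested in 8 lists, all with a row in the table. Of them 15 rose, 16 fell and 101 were not called, so 23.5% were called, against 31.8% of all tested genes, and the median log2 fold change was -0.01. Among 27 other genes linked to adding ubiquitin, SUMO or ISG15 to PCNA or removing them, 3 rose and 3 fell (median -0.04). Not all of the 27 encode enzymes, and ISG15 itself is among them. DTL, the substrate receptor of the CRL4 ligase that can also ubiquitinate PCNA, was at 178 ± 5.28 CPM in wild-type and rose to 213 ± 3.05 CPM (SD, n = 3), by 0.25 on the log2 scale. TRIM25, a ligase that attaches ISG15, fell from 62.6 ± 0.816 to 40.5 ± 0.510 CPM and USP18, which removes ISG15, fell by 1.28 on the log2 scale, while the ISG15-activating enzyme UBA7 rose by 0.83 from a low level of 0.810 CPM.

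Of 17 genes for proteins that bind RAD18 or the single-stranded DNA it is drawn to, 3 rose and 3 fell (median 0.0083). RPA3, the smallest subunit of the single-strand binding complex, was at 71.3 ± 4.31 CPM in wild-type and rose to 90.5 ± 5.98 CPM (SD, n = 3). SLF2, part of the bridge from RAD18 to the SMC5 and SMC6 complex, rose by 0.18, a call lost without knockout replicate 1 (edgeR adjusted p = 0.0508). CDC7, a replication kinase that phosphorylates RAD18, fell from 173 ± 8.96 to 129 ± 4.78 CPM and SMC5 fell by 0.34 on the log2 scale. Without wild-type replicate 1, 5 of the 17 rose. In that setting 6156 of 18296 tested genes were called in either direction, against 5737 of 18061 with all libraries.

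Of 23 genes for translesion polymerases, readers of modified PCNA and related proteins, 2 rose, 1 fell and 20 were not called (median -0.0026). Not all of the 23 encode polymerases or known readers. Beside these 3 of 23, 31.8% of all tested genes were called, a difference that was not tested, and 6 of the 23 had an unadjusted p under 0.05. The fork protein RADX, listed as CXorf57, was at 179 ± 8.57 CPM in wild-type and rose to 236 ± 3.40 CPM (SD, n = 3), with a median of -0.21 over its neighbours. POLN, a translesion polymerase gene, was higher by 0.36, a call lost without knockout replicate 3 (edgeR adjusted p = 0.0548), and the helicase gene FBH1, listed as FBXO18, fell by 0.66 on the log2 scale, where the median over its neighbours was -0.60. Without wild-type replicate 1, 4 of the 23 rose, and without wild-type replicate 3, 2 fell. Among all tested genes, 6156 of 18296 were called in the first setting and 5427 of 18295 in the second.

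None of the 8 clamp loader genes, which put PCNA on DNA or take it off, was called by edgeR (median -0.01), and none had an unadjusted p under 0.05 or was called by DESeq2 or limma-voom. CHTF18 had the highest log2 fold change among them, 0.38 (edgeR adjusted p = 0.173), and 1 of the 8 was called higher without wild-type replicate 3 and with no filter on low counts. Among all tested genes, 5427 of 18295 and 6213 of 36119 were called in these settings, in that order. The ubiquitin-encoding genes UBB and RPS27A had log2 fold changes of 0.04 and 0.05, with 0 called by edgeR, DESeq2 or limma-voom and 0 at an unadjusted p under 0.05.

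Of 18 genes for other proteins that bind PCNA, 3 rose and 4 fell (median 0.0018). The leading-strand polymerase gene POLE was at 239 ± 14.7 CPM in wild-type and rose to 290 ± 13.3 CPM (SD, n = 3), and the DNA ligase gene LIG1 by 0.24 on the log2 scale. The cell cycle inhibitor gene CDKN1A fell from 11.1 ± 0.681 to 7.85 ± 0.247 CPM, and CHAF1B, a subunit of chromatin assembly factor 1, fell by 0.20. Without wild-type replicate 1, 6 of the 18 rose, in a setting where 6156 of 18296 tested genes were called in either direction.

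PCNA is itself known as an S-phase gene, and of 32 other replication and S-phase genes 3 rose, 5 fell and 24 were not called (median -0.04, beside -0.09 for PCNA). MCM5, a subunit of the replicative helicase, was at 220 ± 27.1 CPM in wild-type and rose to 324 ± 18.8 CPM (SD, n = 3), with a median of 0.32 over its neighbours, and the transcription factor gene E2F1 rose by 0.22. MCM10, a helicase-binding factor, fell by 0.49 on the log2 scale, with a median of -0.65 over its neighbours, and the ribonucleotide reductase subunit gene RRM1 fell by 0.16. Without wild-type replicate 1, 5 of the 32 rose, and without knockout replicate 1 or 3, 3 fell. Among all tested genes, 6156 of 18296 were called without wild-type replicate 1. The counts were 4251 of 18556 without knockout replicate 1 and 4503 of 18515 without knockout replicate 3. Of 6 genes for proteins linked to WDR48, the phosphatase gene PHLPP1 rose by 0.27 on the log2 scale and 5 were not called. Without wild-type replicate 1, 2 of the 6 rose.

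**Figure D5:**
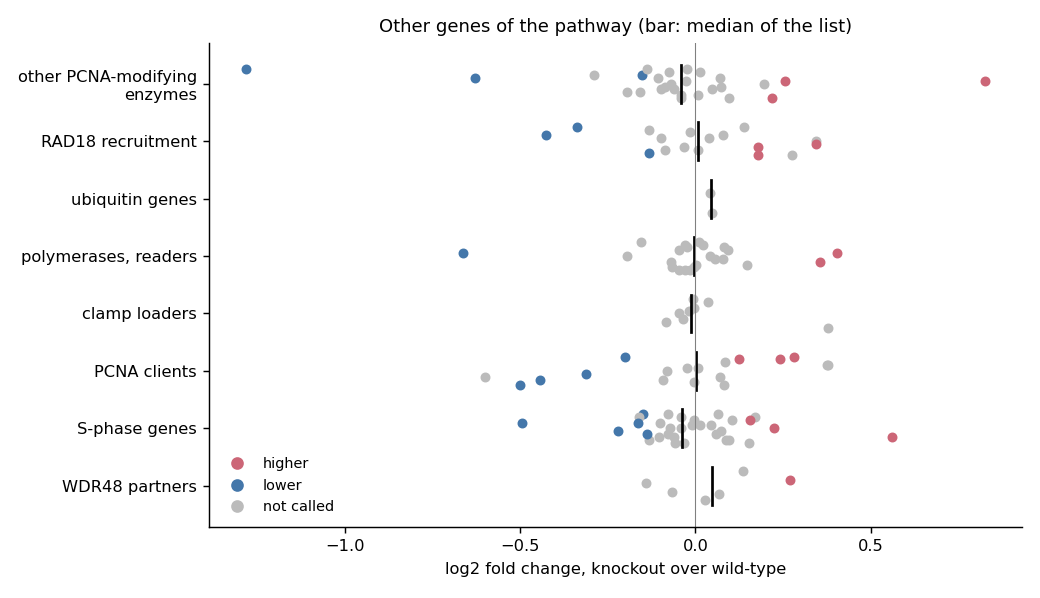
Log2 fold change of the 132 further pathway genes by list, with called genes in red (higher) or blue (lower), the rest in grey and a bar at each list's median. The medians lie between -0.04 and 0.05, and the clamp loader and ubiquitin lists hold no called gene.

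The genes whose mean-centred log2 CPM over the 6 libraries lay nearest to that of HLTF by Euclidean distance were BCAT1 (0.0398), BLMH (0.0491) and CXADR (0.04997), on chromosomes 12, 17 and 21. Their log2 fold changes were -0.50, -0.49 and -0.47, close to the -0.48 of HLTF. Nearest to SHPRH were ZNF445 (0.0397), ARID1B (0.0407) and ZNF551 (0.0522). ARID1B lies on chromosome 6, as SHPRH does, and the others on chromosomes 3 and 19. The 6 libraries form 2 groups, so genes with a similar difference between the groups come out as alike.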

How the data were processed

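The authors deposited raw read counts per gene symbol, whole numbers with 1 column per library and no normalization. Libraries were made with a stranded poly(A) kit and read as 50-base pairs, per the labels' protocols. Trim Galore, STAR 2.4, Picard, HTSeq 0.9.1, DESeq2 and hg38 are named without roles, per the submitters' processing notes, and the annotation and strand setting were not found in the labels. Columns were matched by the names in the labels. The genes and lists were chosen with earlier results of these data known.

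The test was edgeR 4.0.16, run in R 4.3.3 (filterByExpr, TMM, glmQLFit with robust = FALSE, two-sided p adjusted over all 18061 tested genes), with a biological coefficient of variation of 6.12%. The procedure was tested on simulated data with independent libraries and changed genes placed at random. That simulation does not cover blocks of neighbouring genes or a deviating library. Intervals are 95%, from the edgeR fit to the deposited counts. Within groups, pairs of libraries had chi-square values of 3.60 to 15.3 per degree of freedom, above sampling noise, so no library was counted as a copy. Positions, exon overlaps and lengths came from GENCODE 29 (hg38), which positioned 30381 symbols. Genes named from the lists are up to 2 called members per direction with the smallest p, and for likeness the nearest 3. CHTF18, UBE2V1, NUDT4 and NKRF are named beside them. Some genes of these lists are not reported here. Alternatives were RLE and library-size scaling, other filters, DESeq2 1.42.0, limma-voom (limma 3.58.1), robust dispersion, a replicate block, each library left out, an adjusted p threshold of 0.01 and the neighbour median removed, plus thinning to the smallest total, added after seeing the data.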

Additional observations from a re-analysis of the deposited data

How the results depend on the processing

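Each of the 10 genes was examined under 17 alternatives. SHPRH, UBE2N and PCNA kept their direction and side of the threshold in all 17. Of the 10 genes, 3 were called (1 higher) with the neighbour median removed, against 5 (2 higher) in the main fit. The 3 were SHPRH, UBE2N and UBE2V2, and UBE2V2 was not among the 5. Under that alternative 4489 of 14452 tested genes with a position were called, against 5737 of 18061 tested genes in the main fit. That alternative turned the sign of HLTF (0.017), RAD18 (-0.088) and UBE2B (0.050). RAD18, whose value was near 0, also changed sign with library size only (-0.0014) and with no filter on low counts (-0.0086). With each library left out in turn, RAD18 ran from -0.022 to 0.053 and UBE2B from -0.060 to 0.0098. At a threshold of 0.01, 18 of the 132 further genes were called in place of 31, and 3477 of all 18061 tested genes in place of 5737. The replicate numbers are not said to mark a shared culture, and deviations of same-numbered libraries correlated at -0.226 to -0.0144. With the replicate number as a block, 4232 genes were called in place of 5737. An exact sign-flip test of a ratio over 3 pairs cannot go below p = 0.25, so it says nothing about the HLTF to SHPRH ratio, whose log2 difference of -0.90 is the same in both forms. With lengths of the longest transcript, wild-type levels per kilobase were 268 (PCNA), 37.7 (HLTF), 31.5 (UBE2N), 35.8 (UBE2V2), 42.9 (UBE2A), 24.6 (WDR48), 16.8 (RAD18), 15.5 (UBE2B) and 6.90 (SHPRH) CPM. Knockout levels were 252 (PCNA), 93.9 (USP1), 27.0 (HLTF), 26.4 (UBE2N), 32.99 (UBE2V2), 29.8 (WDR48), 38.4 (UBE2A), 16.8 (RAD18), 15.1 (UBE2B) and 9.20 (SHPRH). These shifts come from the shorter length alone. With 3 libraries a group, intervals of about 0.1 on either side bound what could be seen between these libraries in the genes not called.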
